A study of Mus musculus with 6 samples.

Results

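The genes described here are 8 integrin chains and a pair of further adhesion molecules of T cells: the beta chains Itgb1, Itgb2, Itgb3 and Itgb7, the alpha chains Itga4, Itgal, Itgae and Itgav, the hyaluronan receptor Cd44 and the selectin ligand Selplg. Members were taken by name, and every array probe whose RefSeq accession maps to one of these 10 genes was used. That gave 15 probes of the 55371 used on the arrays, which carry 22565 named genes. A probe is called bright where its mean log2 intensity over the 6 arrays was at least 8, an intensity of 256. There were 10225 bright probes, and 11 of the 15 member probes were among them, covering 9 of the 10 genes. Itgae was the gene without a bright probe.

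RNA was hybridised to 6 Agilent mouse arrays of the single-colour kind, in 3 groups with 2 arrays each. All groups are TEa cells, CD4+ T cells with a transgenic antigen receptor (Vα2+Vβ6+), on a C57BL/6 background and CD45.2+. Congenic CD45.1+ B6.SJL mice received the cells on day -1 and a Balb/c heart graft on day 0, and the cells were recovered by sorting from the spleen on day 6. The WT IgG group is wild-type TEa cells in recipients labelled as treated with rat IgG, for which no dose or injection day is given. The Irf4 KO IgG group is cells labelled Irf4-/- in recipients injected with 400 µg of rat IgG on days 0, 3 and 5. The Irf4 KO blockade group is cells labelled Irf4-/- in recipients injected on the same days with 200 µg of an antibody to PD-L1 plus 200 µg of one to CTLA-4 (9D9). The 2 arrays of a group came from independent experiments and are called array 1 and array 2, the latter being the one labelled as a repeat. The number of recipients behind each array, their age and their sex are not given in the sources used here. The questions are how graft-reactive T cells differ when Irf4 is lost, and how checkpoint blockade alters the cells labelled Irf4-/-.

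Integrins are surface receptors made of an alpha and a beta chain, and neither chain is stable at the surface without a partner. Itgb1 and Itgb7 both pair with Itga4, giving VLA-4, which binds VCAM-1 and fibronectin, and the gut-homing receptor of MAdCAM-1. Itgb7 also pairs with Itgae (CD103), which binds E-cadherin on epithelium, and Itgal pairs with Itgb2 to form LFA-1, which binds ICAM-1 and holds T cells to antigen-presenting cells. Itgav pairs with several beta chains, Itgb1 and Itgb3 among them, and its heterodimers bind vitronectin and the latent form of TGF-beta. Cd44 binds hyaluronan and is a standard marker of antigen-experienced T cells, and Selplg encodes PSGL-1, the ligand of P-selectin.

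The arrays differed in ways that bear on every value below. Between 34.5% and 40.5% of probes were well above background on the WT and blockade arrays and 66.0% and 75.2% in the Irf4 KO IgG group. Of 31515 probes dim in both WT arrays, the Irf4 KO IgG pair detected 38.3% and the blockade pair 0.517%, a probe counting as detected where it was well above background in both arrays of the pair. For this reason bright probes were quantile-normalised among themselves, and a log2 fold change is relative to other bright probes (median over all bright probes -0.02 for Irf4 KO IgG against WT, 0.03 for blockade against Irf4 KO IgG and 0.00 for blockade against WT). Each of 2 Irf4 probes was brighter in the 4 libraries labelled Irf4 KO than in either WT library, and their place relative to the deletion is unknown, so groups carry their labels as names. The log2 fold change of the bright Irf4 probe against WT was 1.44 in Irf4 KO IgG (limma adjusted p = 0.0182). In blockade cells it was 1.40 (limma adjusted p = 0.0211). All 10 T cell markers were well above background on every array. Markers of B cells (8 of 8 genes well above background on each Irf4 KO IgG array against 1 or 2 on each other array), dendritic cells (5 of 6 against 1) and monocytes, macrophages and neutrophils (10 of 10 against 6 or 7) were detected more often on the Irf4 KO IgG arrays. The summed intensity of the last list was 4180 and 65347 in the Irf4 KO IgG arrays, 1875 and 1967 in WT and 2306 and 5965 in blockade. For B cells it was 892 and 4733, against 119 and 118 in WT and 321 and 360 in blockade, and for dendritic cells 24020 and 13195, against 7574 and 13943 in WT and 7384 and 4780 in blockade. The dendritic sum was mostly Siglech, which read 23793 and 12858 in Irf4 KO IgG, 7552 and 13923 in WT and 7367 and 4738 in blockade. Markers of CD8 T and NK cells summed to between 688 and 1289 on the 6 arrays, the largest part being Cd8b1 (503 to 863). Of these 4 genes, 3 and 4 were well above background on the Irf4 KO IgG arrays, against 2 on each other array. Erythroid and platelet markers summed to 170 and 653 in WT, 1340 and 45299 in Irf4 KO IgG and 9342 and 5810 in blockade. Negative control spots had a median of 3.34 to 4.53 on the 6 arrays, so a sum above 0 does not by itself show that a cell type was present. Nor do the sums show that any was absent. The part of these marker lists in the results was not tested.

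RefSeq promoter sequences on GRCm38.p6 were held for 5 of the 10 members. The 250 bases before the start are shown for Itgb1 and Cd44, the members that fell in Irf4 KO IgG cells, and for Itga4, the alpha chain that Itgb1 and Itgb7 share. They lie at chr8:128685404-128685653 (plus strand), chr2:102901666-102901915 (minus strand) and chr2:79255176-79255425 (plus strand) and are written 5′ to 3′ on the strand of the gene. Capitals mark the GC box GGGCGG and, in Itga4, the Runx core TGTGGT, which reads as ACCACA because it lies on the opposite strand.
Itgb1: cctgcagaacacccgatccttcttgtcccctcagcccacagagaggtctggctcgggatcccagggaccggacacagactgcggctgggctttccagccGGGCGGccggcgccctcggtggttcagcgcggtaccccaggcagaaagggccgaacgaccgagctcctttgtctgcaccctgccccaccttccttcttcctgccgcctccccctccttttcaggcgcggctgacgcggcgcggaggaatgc
Cd44: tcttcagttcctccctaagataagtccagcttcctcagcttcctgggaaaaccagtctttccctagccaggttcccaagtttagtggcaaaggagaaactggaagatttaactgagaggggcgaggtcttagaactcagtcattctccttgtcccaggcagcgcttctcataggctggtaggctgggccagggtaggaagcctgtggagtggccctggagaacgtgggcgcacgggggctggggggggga
Itga4: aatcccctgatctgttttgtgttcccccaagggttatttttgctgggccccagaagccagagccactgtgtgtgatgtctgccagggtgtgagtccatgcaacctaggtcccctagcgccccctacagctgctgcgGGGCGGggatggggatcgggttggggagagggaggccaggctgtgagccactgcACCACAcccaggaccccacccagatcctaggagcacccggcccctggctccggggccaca
Counted from the start, with the base before it as -1, the GC box lies at -151 to -146 in Itgb1 and at -114 to -109 in Itga4, and the Runx core at -60 to -55 in Itga4. Both strands of the 5 member promoters were searched for 5 motifs, and the capitals overlap no other match. GGGCGG was in 2 of the 5 and in 32.7% of 32851 promoters of this length, and TGTGGT was in 1 of the 5 and in 14% of all. The interferon response element, searched as GAAA, any 2 bases and GAAA (2.98% of all promoters), the Ets-IRF composite element, searched as GGAA, any 2 bases and GAAA (2.3%), and the AP-1 site TGANTCA (6.75%) had no match in the 5 windows. The GC content was 68% for Itgb1, 56.4% for Cd44 and 64% for Itga4, with a median of 52.4% over all promoters.

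Itgb1, the common beta chain of the VLA integrins, was lower in cells labelled Irf4 KO, with or without blockade. Its brighter probe read intensities of 12713 and 12645 in WT (array 1, then array 2), 3657 and 5171 in Irf4 KO IgG and 4989 and 3062 in blockade cells. Every array labelled Irf4 KO lay below both WT arrays, and the Irf4 KO IgG and blockade arrays overlapped. After normalisation WT cells averaged a log2 level of 13.51 ± 0.25 (SD, n = 2), Irf4 KO IgG cells 11.96 ± 0.14 and blockade cells 12.13 ± 0.27. Itgb1 fell by 1.55 on the log2 scale between WT and Irf4 KO IgG (SE 0.19, 95% interval -2.03 to -1.07, limma adjusted p = 0.0338), a level 2.93 times lower. In bulk RNA of a sorted population, fewer cells with a transcript and less of it per cell cannot be told apart.

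The other bright Itgb1 probe read 2157 and 2019 in WT, 663 and 1095 in Irf4 KO IgG and 1047 and 499 in blockade cells. The order of the groups was the same as for the brighter probe, with no overlap between WT and the rest. Its log2 fold change for Irf4 KO IgG against WT was -1.55 (SE 0.26) and narrowly missed the threshold (limma adjusted p = 0.0520). Blockade against WT gave -1.39 for the brighter probe (95% interval -1.87 to -0.90, limma adjusted p = 0.0516) and -1.16 for the other (adjusted p = 0.113), neither of which passed. Blockade against Irf4 KO IgG gave 0.16 for the brighter probe (95% interval -0.32 to 0.65, limma adjusted p = 0.599).

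Cd44 was lower in the same arrays. Its brighter probe read 1207 and 1360 in WT, 626 and 1021 in Irf4 KO IgG and 583 and 441 in blockade cells. The other bright probe read 1220 and 1280, then 455 and 654, then 417 and 305. On both probes all 4 arrays labelled Irf4 KO lay below both WT arrays. Cd44 fell between WT and Irf4 KO IgG by 0.95 on the log2 scale on the brighter probe (SE 0.13, 95% interval -1.28 to -0.62, limma adjusted p = 0.0393). On the other probe it fell by 1.505 (SE 0.15, limma adjusted p = 0.0214).

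Between WT and blockade cells the other Cd44 probe fell by 1.44 on the log2 scale (SE 0.15, limma adjusted p = 0.0251), whereas the brighter probe, at -0.98 (SE 0.13), did not pass (adjusted p = 0.0516). Blockade against Irf4 KO IgG gave -0.02 (95% interval -0.35 to 0.31) and 0.07 (95% interval -0.30 to 0.43) on these probes, and neither passed (limma adjusted p of 0.922 and 0.787). The probes did not move by equal amounts. The log2 ratio of the brighter to the other probe within an array was -0.02 and 0.09 in WT, 0.46 and 0.64 in Irf4 KO IgG and 0.48 and 0.53 in blockade cells. The WT arrays lay below all others in this ratio, by 0.52 against Irf4 KO IgG and 0.47 against blockade on average, with an exact two-sided permutation p of 0.333 each, the smallest that 2 against 2 arrays can give. Cd44 is spliced into many isoforms, and which of them each probe reads is not known here. The third Cd44 probe was dim, with intensities of 3.31 to 20.6, and was well above background on Irf4 KO IgG array 1 alone.

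Itgb1 and Cd44 were 2 of 9 bright members (22.2%) that passed between Irf4 KO IgG and WT, both lower, counting a gene by its brighter probe. Over all bright probes 2.41% passed in either direction and 0.998% as lower. By limma, 4 of the 9 members were below an unadjusted p of 0.05, against 23.3% of all bright probes. The median log2 fold change of the 9 was -0.32, and 7 were below 0. In 4 members, Itgb1, Itgb7, Itgal and Cd44, the Irf4 KO IgG arrays lay below both WT arrays, and in 0 above, against 29.2% and 23.2% of bright probes. The calls rest on a spread estimated from few arrays: without any single array, controls and blockade arrays included, Itgb1 gave -1.73 to -1.36 (limma adjusted p from 0.0671 to 0.159) and Cd44 -1.07 to -0.82 (adjusted p from 0.0656 to 0.177). With the slide row as a block the adjusted p was 0.0604 and 0.0635.

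**Figure D1:**
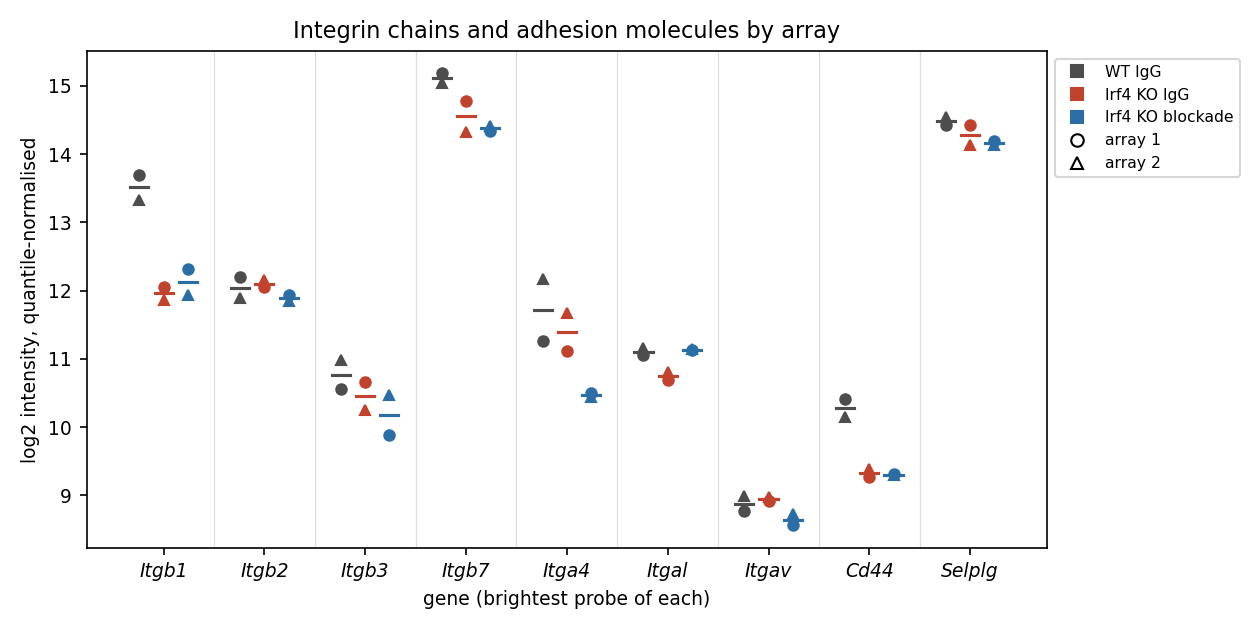
Quantile-normalised log2 intensity (vertical axis) of the brightest probe of each of the 9 bright members, by group and array; horizontal lines are means of the 2 arrays. Itgb1 and Cd44 sit lower on each of the 4 Irf4 KO arrays than on either WT array, and Itga4 is lowest on the blockade arrays. Heights compare arrays within a gene and not genes with each other, since probes differ in response.

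Itga4 and the beta chains it pairs with did not behave alike. Itga4 read 2238 and 5621 in WT, 1987 and 4553 in Irf4 KO IgG and 1360 and 1032 in blockade cells. The WT and Irf4 KO IgG arrays overlapped and spread widely within each group, while both blockade arrays lay below all others. A dim Itga4 probe, well above background on every array, read 100.1 and 137, then 122 and 118, then 59.8 and 34.7. In these intensities, which are not scaled between arrays, the blockade arrays were lowest again. On the all-probe scale described below, this probe gave 0.16 for blockade against Irf4 KO IgG (limma adjusted p = 0.700). It gave -1.16 for Irf4 KO IgG against WT (adjusted p = 0.0314) and -1.01 for blockade against WT (adjusted p = 0.530). Whether blockade lay below Irf4 KO IgG on this probe therefore depended on the scale.

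The log2 fold change of Itga4 was -0.32 for Irf4 KO IgG against WT (95% interval -1.14 to 0.50, limma adjusted p = 0.597). It was -0.92 for blockade against Irf4 KO IgG (95% interval -1.75 to -0.10, limma adjusted p = 0.145) and -1.24 for blockade against WT (95% interval -2.06 to -0.42, adjusted p = 0.143). None of the 3 passed. WT cells averaged a log2 level of 11.71 ± 0.64 (SD, n = 2), Irf4 KO IgG cells 11.39 ± 0.39 and blockade cells 10.47 ± 0.04.

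Itgb7, the beta chain of the gut-homing receptor, read 36337 and 41008 in WT, 22251 and 25389 in Irf4 KO IgG and 20566 and 18407 in blockade cells. The WT arrays were highest and overlapped with no other group. Its log2 fold change against WT was -0.56 in Irf4 KO IgG (95% interval -0.99 to -0.12, limma adjusted p = 0.147) and -0.73 in blockade cells (95% interval -1.17 to -0.30, adjusted p = 0.120), and neither passed. Blockade against Irf4 KO IgG gave -0.18 (95% interval -0.61 to 0.26, limma adjusted p = 0.530).

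Itgae, the CD103 chain that pairs with Itgb7, could not be compared. Its probe read 4.98 and 10.6 in WT, 14.4 and 55.4 in Irf4 KO IgG and 6.29 and 4.79 in blockade cells. It was well above background on Irf4 KO IgG array 2 alone, the array with the largest share of probes well above background. No fold change is given for it.

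Neither chain of LFA-1 passed in any comparison of bright probes. Itgb2 read 4426 and 4576 in WT, 3648 and 6167 in Irf4 KO IgG and 3739 and 2830 in blockade cells. Its log2 fold change was 0.06 for Irf4 KO IgG against WT (95% interval -0.30 to 0.42, limma adjusted p = 0.842) and -0.16 for blockade against WT (95% interval -0.52 to 0.20, adjusted p = 0.606). These intervals leave out a change of the size that Itgb1 showed. Itgal read 1944 and 2740 in WT, 1522 and 2577 in Irf4 KO IgG and 2123 and 1708 in blockade cells.

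On the normalised scale Itgal was at 11.06 and 11.15 in WT, 10.69 and 10.81 in Irf4 KO IgG and 11.12 and 11.14 in blockade cells, so that the Irf4 KO IgG arrays lay below all others. The log2 fold change was -0.35 against WT (95% interval -0.64 to -0.07, limma adjusted p = 0.156) and 0.38 for blockade against Irf4 KO IgG (95% interval 0.10 to 0.66, adjusted p = 0.113). Neither passed, and blockade against WT gave 0.03 (95% interval -0.26 to 0.31, limma adjusted p = 0.932).

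Itgav read 369 and 590.3 in WT, 494 and 785 in Irf4 KO IgG and 346 and 291 in blockade cells. It passed in no comparison, with log2 fold changes of 0.07 for Irf4 KO IgG against WT, -0.30 for blockade against Irf4 KO IgG and -0.23 for blockade against WT (limma adjusted p of 0.797, 0.206 and 0.413). Itgb3, the beta chain of the vitronectin receptor, read 1344 and 2404 in WT, 1491 and 1791 in Irf4 KO IgG and 873 and 1051 in blockade cells. The blockade arrays were lowest before normalisation, and on the normalised scale blockade array 2 (10.47) lay above Irf4 KO IgG array 2 (10.25). Its log2 fold changes in the same order were -0.31, -0.28 and -0.60 (limma adjusted p of 0.520, 0.513 and 0.307), and none passed.

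Itgb3 also forms the fibrinogen receptor of platelets with Itga2b. A dim Itgb3 probe read 42.1 and 56.6 in WT, 63.9 and 86.5 in Irf4 KO IgG and 18.1 and 18.2 in blockade cells, the last of these not well above background. Itga2b was not well above background on the WT and blockade arrays, and read 85.9 and 184 on the Irf4 KO IgG arrays.

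Selplg, the PSGL-1 gene, read 21654 and 28938 in WT, 17485 and 22114 in Irf4 KO IgG and 18750 and 15245 in blockade cells. WT and Irf4 KO IgG arrays overlapped. Its log2 fold change was -0.20 for Irf4 KO IgG against WT (95% interval -0.55 to 0.15, limma adjusted p = 0.442), -0.12 for blockade against Irf4 KO IgG (adjusted p = 0.599) and -0.32 for blockade against WT (adjusted p = 0.302). None passed.

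Against Irf4 KO IgG, blockade passed the threshold for 0 of 9 members by limma (0.900% of all bright probes passed, 0.460% as lower), and 2 members, Itga4 and Itgal, were below an unadjusted p of 0.05 (28.6% of all bright probes). The median of the 9 was -0.18. In 3 members, Itgb2, Itga4 and Itgav, the blockade arrays lay below both Irf4 KO IgG arrays (28.3% of bright probes), and in Itgal above them (34.0%). Against WT, blockade passed for 0 of 9 members and for 1 of their 11 bright probes, the other probe of Cd44, by limma (0.724% of all bright probes passed, 0.284% as lower). There 4 members were below an unadjusted p of 0.05 (19.0% of all bright probes), the median was -0.60, and 7 members lay below WT without overlap (27.3%). The comparisons share arrays, so they are not independent of each other.

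On the all-probe scale, which subtracts the 75th percentile of each array, all 9 members passed as lower between Irf4 KO IgG and WT (26.9% of 34988 probes passed as lower and 56.3% in either direction), 6 passed as higher between blockade and Irf4 KO IgG (27.8%, and 56.7% in either direction), and 0 passed between blockade and WT. On that scale the median of all bright probes was itself -1.04, 1.09 and 0.06 in these comparisons. For Irf4 KO IgG against WT, Itgb1 there was -2.74, Itgb7 -1.90 and Cd44 -1.88. Selplg was -1.55, Itga4 -1.44, Itgal -1.42, Itgb3 -1.34 and Itgb2 -1.13. All of these were below that median, and Itgav (-0.79) was above it.

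**Figure D2:**
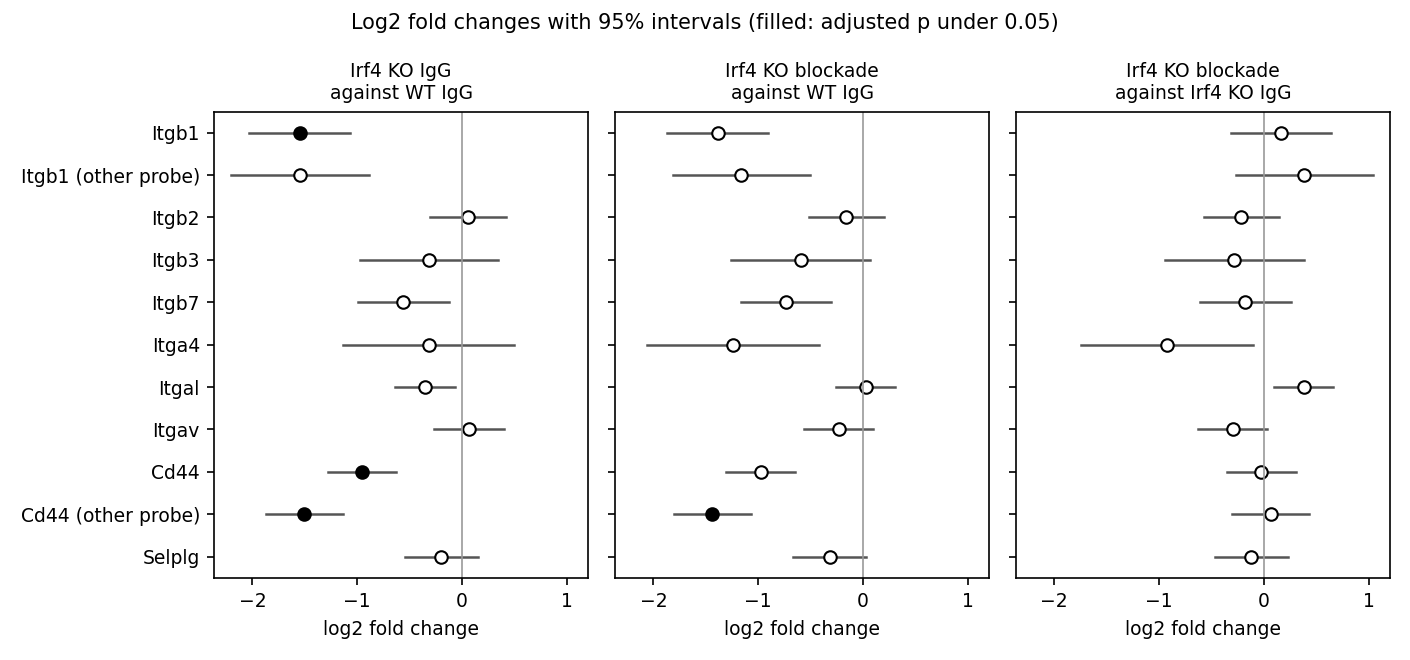
Log2 fold change (horizontal axis) of each bright member probe in the 3 comparisons with its 95% interval; filled points passed at the adjusted p threshold of 0.05 by limma. Filled are Itgb1 and both Cd44 probes for Irf4 KO IgG against WT and the other Cd44 probe for blockade against WT, and none for blockade against Irf4 KO IgG.

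Reading alpha and beta chains as pairs used the log2 ratio of the beta to the alpha probe within an array, which cancels any factor common to the array. Only its change between groups is read, because probes differ in response. The ratio does not cancel a difference between arrays that varies with intensity. For Irf4 KO IgG against WT, the all-probe scale had a median of -1.04 for bright probes and -0.08 for all its probes. The sizes below, from intensities without normalisation, can therefore differ from those on the normalised scale. The ratio of Itgb1 to Itga4 was 2.51 and 1.17 in WT, 0.88 and 0.18 in Irf4 KO IgG and 1.88 and 1.57 in blockade cells. Both Irf4 KO IgG arrays lay below all others, by 1.31 on average against WT and 1.19 against blockade, while WT and blockade overlapped. The difference from WT was -0.64 without WT array 1 and -1.97 without WT array 2, so its size rested on those arrays, and the difference between blockade and WT (-0.12) was 0.55 without WT array 1 and 0.04 without blockade array 2.

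The ratio of Itgb7 to Itga4 was 4.02 and 2.87 in WT, 3.49 and 2.48 in Irf4 KO IgG and 3.92 and 4.16 in blockade cells. The blockade arrays were above the Irf4 KO IgG arrays by 1.06 on average without overlap, and both groups overlapped with WT. On the normalised scale Itgb7 changed by -0.18 and Itga4 by -0.92 between these 2 groups, a smaller gap than 1.06. For Itgb2 over Itgal the ratio was 1.19 and 0.74 in WT, 1.26 and 1.26 in Irf4 KO IgG and 0.82 and 0.73 in blockade cells. The Irf4 KO IgG arrays were above all others, by 0.30 against WT and 0.49 against blockade.

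The ratio of Itgb3 to Itgav was 1.86 and 2.03 in WT, 1.59 and 1.19 in Irf4 KO IgG and 1.33 and 1.86 in blockade cells, and the WT arrays were highest. That of Itgb1 to Itgav was 5.11 and 4.42, then 2.89 and 2.72, then 3.85 and 3.40, and the 3 groups did not overlap. Its change against WT was -1.96 for Irf4 KO IgG and -1.14 for blockade. In each ratio where groups did not overlap the exact two-sided permutation p was 0.333, the smallest possible for 2 against 2 arrays, so this test cannot call any pair. Itgb7 over Itgae was not computed because Itgae was dim.

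**Figure D3:**
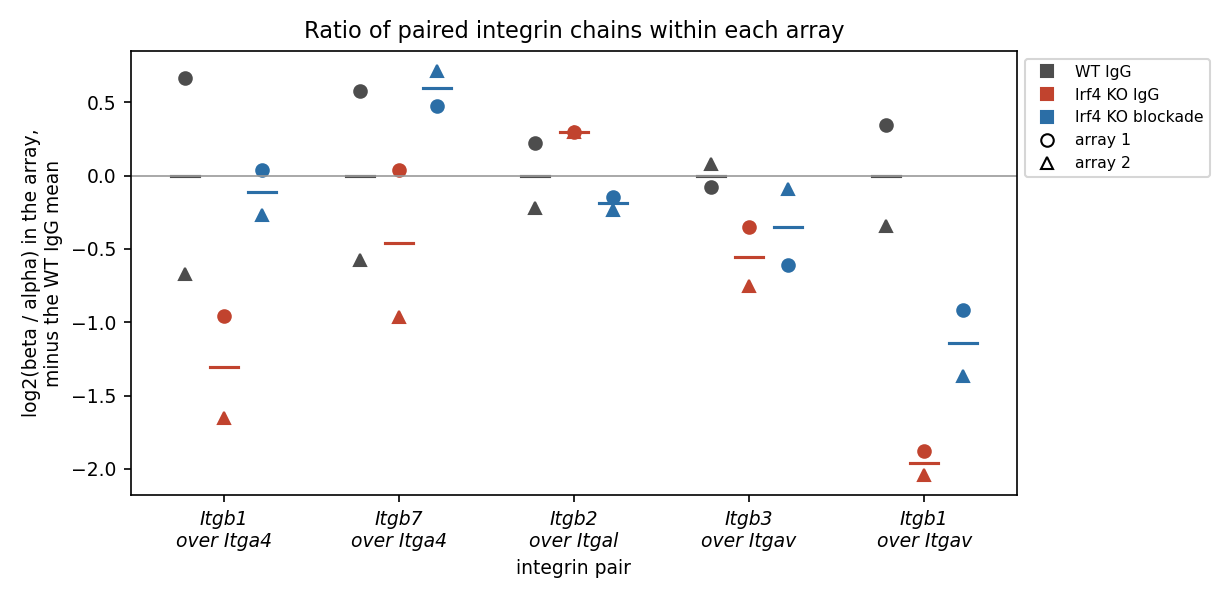
Log2 ratio of beta to alpha chain within each array, minus the mean of the WT IgG arrays (vertical axis), for 5 chain pairs; points are arrays and horizontal lines are means of the 2 arrays of a group. Itgb1 over Itgav is lowest in both Irf4 KO IgG arrays, with a mean change of -1.96, and Itgb1 over Itga4 spreads widely between the WT arrays.

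The other 18 integrin chains were mostly dim in WT cells, and 3 were bright: Itga6 and Itga7, which pair with Itgb1 as laminin receptors, and Itgam, which pairs with Itgb2. By limma 0 of the 3 passed in any comparison. For Irf4 KO IgG against WT 2 were below an unadjusted p of 0.05 (23.3% of all bright probes). For blockade against Irf4 KO IgG 0 were (28.6%), and for blockade against WT 1 was (19.0%). Itga6 read 2740 and 3696 in WT, 5870 and 5793 in Irf4 KO IgG and 3940 and 3475 in blockade cells, and its log2 fold change for Irf4 KO IgG against WT was 0.84 (limma adjusted p = 0.127). Itga7 was at -0.75 and Itgam at 0.29 in that comparison (limma adjusted p of 0.165 and 0.673). Of 14 chains dim on both WT arrays, 9 (64.3%) were detected in both Irf4 KO IgG arrays. Of all probes dim in WT, 38.3% were. These shares differ in unit, since a chain was read only by its probe with the highest mean log2. That mean includes the Irf4 KO IgG arrays, so the shares cannot show whether chains exceeded other genes. In both blockade arrays 0 of the 14 chains were detected, and 1, Itgb5, was well above background on blockade array 1. The rise in the number of probes and of markers of other cells on the Irf4 KO IgG arrays moved with these chains, and their part in it was not tested.

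**Figure D4:**
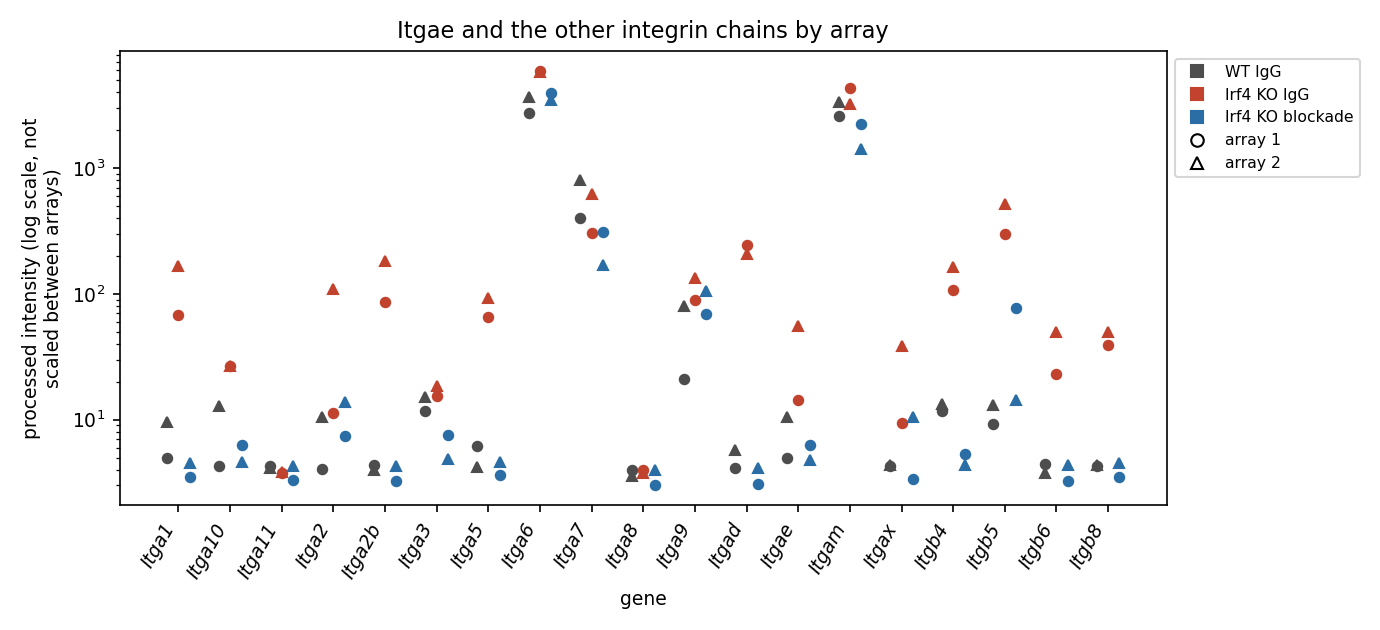
Processed intensity (vertical axis, log scale, not scaled between arrays) of Itgae and 18 other integrin chains on the 6 arrays. Most chains are near background on the WT and blockade arrays and brighter on the Irf4 KO IgG arrays, whereas Itga6, Itga7 and Itgam are bright on every array.

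Among 23 bright genes of integrin activation and cytoplasmic linkage (29 listed, 28 with a probe), 0 passed between Irf4 KO IgG and WT by limma and 5 were below an unadjusted p of 0.05 (23.3% of all bright probes were), with a median of 0.11. Between blockade and Irf4 KO IgG 1 of the 23 passed, as lower (0.460% of all bright probes), 12 were below an unadjusted p of 0.05 (28.6% of all bright probes), 19 were below 0 and the median was -0.34. The 1 that passed was Fyb, the adaptor ADAP that links the T cell receptor to integrin activation. It read 8585 and 11512 in WT, 10037 and 16217 in Irf4 KO IgG and 7140 and 5872 in blockade cells. Fyb fell by 0.79 on the log2 scale (SE 0.11, limma adjusted p = 0.0494), and this call ended without any single array (adjusted p from 0.0533 to 0.351). Blockade against WT called 0 of the 23 by limma, with 9 below an unadjusted p of 0.05 (19.0% of all bright probes) and a median of -0.17. Of 12 ligands and counter-receptors, Icam2 and Tgfb1, named here after their values were seen, were bright, and neither passed in any comparison (limma; 0 below an unadjusted p of 0.05).

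Of 7 bright selectin genes and enzymes of selectin ligand synthesis (16 listed), 1 passed between Irf4 KO IgG and WT and 1 between blockade and WT, both as higher (1.41% and 0.440% of all bright probes) and in each case Fut7, the fucosyltransferase that finishes selectin ligands such as those carried by PSGL-1. Fut7 read 185 and 183 in WT, 583 and 1351 in Irf4 KO IgG and 867 and 733 in blockade cells. All 4 arrays labelled Irf4 KO were above both WT arrays. Fut7 lay below an intensity of 256 in WT and counted as bright only through the arrays labelled Irf4 KO, so its place among the tested genes depended on the difference itself and its call adds no support. Its log2 fold change was 1.85 in Irf4 KO IgG (SE 0.24, limma adjusted p = 0.0365) and 2.30 in blockade cells (SE 0.24, adjusted p = 0.0268), though on a scale set by each array's median the first of these was -0.60 and did not pass. The all-probe fit, which has no such brightness minimum, gave 1.07 (limma adjusted p = 0.0337) and 2.47 (adjusted p = 0.209). Leaving out an array gave an adjusted p up to 0.141 and 0.249, with the calls kept in 2 of 6 cases each.

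Of the other 30 T cell adhesion molecules 22 were bright. By limma 8 were below an unadjusted p of 0.05 for Irf4 KO IgG against WT (23.3% of all bright probes). There were 10 for blockade against WT (19.0%) and 6 for blockade against Irf4 KO IgG (28.6%). In each comparison against WT 1 passed as higher (1.41% and 0.440% of all bright probes) and 0 as lower. In each case this was Crtam, a receptor of the nectin-like protein Cadm1. It read 71.7 and 71.8 in WT, 537 and 763 in Irf4 KO IgG and 763 and 495 in blockade cells. Both WT arrays lay far below the others. Crtam too counted as bright only through the arrays labelled Irf4 KO, and its call adds no support. Its log2 fold change was 2.42 in Irf4 KO IgG (SE 0.19, limma adjusted p = 0.0148) and 3.01 in blockade cells (SE 0.19, adjusted p = 0.0106), and it passed in 4 of 6 fits that left out an array in each comparison, with an adjusted p up to 0.0640 and 0.0998. The all-probe fit gave 1.96 (limma adjusted p = 0.00733) and 3.45 (adjusted p = 0.159). Of the 10 T cell markers, 1, the adaptor Trat1, passed between Irf4 KO IgG and WT, as lower (-1.16, limma adjusted p = 0.0468). Over all bright probes 0.998% passed as lower in that comparison. The Trat1 call ended without any single array (log2 fold change from -1.34 to -0.998). The median of the 10 was -0.05.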

How the data were processed

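Per the labels' protocols, RNA was extracted from sorted cells and 0.5 µg was amplified and labelled with Cy3. Per the file headers, Agilent Feature Extraction 11.0.1.1 read the spots, and the submitters' processing notes name 9.1. The deposited scanner files hold a processed intensity per spot that the authors' software had background-subtracted and detrended. In the deposited value table this intensity was divided, as a signal, by a constant for each array.

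Control spots and spots marked as outliers were dropped (59305 of 62976 spots per array were not controls). This left 55371 of 56605 probes, and 0 spots were saturated. RefSeq accessions named 58.3% of the probes. Probe positions are left out, since the array design and the reference differ in build. Log2 intensity was averaged over spots. The 10225 probes with a mean of at least 8 were quantile-normalised and fitted with limma 3.58.1 in R 4.3.3 (lmFit and eBayes, 3 groups together, 3 residual degrees of freedom, Benjamini-Hochberg, threshold 0.05). Dim probes are given as intensity. A gene's value is its probe with the highest mean log2. Chain ratios used exact two-sided permutation tests. The fit was tested on simulated data.

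The members and lists were chosen with earlier results of these data known. The named genes are all members, members of the other lists that passed, up to 4 per list and comparison, and heterodimer partners of members, with the exceptions said to be named after their values were seen. A gene of the lists is not reported here, though list counts include it. Each group's number of arrays limits precision, and all 6 arrays were on 1 slide and 1 scan. Alternatives were cyclic loess, the median of bright probes, all-probe scales (75th percentile or array median), normexp with an offset of 50, the value table, minimums of 7 and 9, gene-level values, replicate and slide row blocks, the 4 arrays of a comparison, and leaving out each array. Quantile-normalised chain ratios were added after seeing the data.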

Additional observations from a re-analysis of the deposited data

How the results depend on the processing

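The counts of calls moved with the scale and with the probes and arrays used, and the cause was not tested. Counts are given for Irf4 KO IgG against WT, blockade against Irf4 KO IgG and blockade against WT, in this order. The main counts by limma were 246, 92 and 74 of 10225 probes and 2, 0 and 0 members. Cyclic loess gave 198, 27 and 160 probes, with 2 members in the last comparison. The median of bright probes gave 429, 939 and 148 probes and 2 members in the last. The all-probe fit with the 75th percentile gave 19696, 19830 and 0 probes and 9, 6 and 0 members, and the array median gave 22968, 22450 and 0 probes and 9, 9 and 0 members. A minimum of 9 gave 90, 17 and 105 probes and 2 members in the last. The highest probe of each gene gave 161, 28 and 93 calls and 2 members in the last, and the mean of a gene's probes 149, 26 and 97 and 1 member. With normexp (246, 97 and 90 probes) 1 member passed in the last. The slide row as a block gave 94, 0 and 27 probes and 0 members, and the 4 arrays of a comparison alone 5, 0 and 131 probes and 0 members. Leaving out an array gave 5 to 151, 0 to 405 and 0 to 128 probes, and 0 members in each comparison.

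The groups share replicate numbers. Deviations of same-numbered arrays correlated at 0.04, -0.18 and 0.05 in the 3 pairs of groups. These values cannot show whether same-numbered arrays came from the same experiment, so a pairing is unknown. The fit with the replicate block called 68, 60 and 58 probes and 1, 0 and 1 members. In that fit Itgb1 passed between Irf4 KO IgG and WT (limma adjusted p = 0.0372) and Cd44 did not (adjusted p = 0.0787).

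Results turned on the all-probe scales, which move all bright probes together. For Irf4 KO IgG against WT the 75th percentile and the array median gave -1.13 and -2.79 for Itgb2, -0.79 and -2.45 for Itgav and -0.84 and -2.51 for Fyb. The array median turned Irf4 to -1.28, Itga6 to -1.99, Itgam to -2.52 and Fut7 to -0.60, the last not past the threshold. The 75th percentile also turned Itga6 (-0.33) and Itgam (-0.85), without passing, and left Irf4 (0.39) and Fut7 (1.07) above 0. For blockade against Irf4 KO IgG both scales turned Itgb2 (1.01 and 2.80), Itgb7 (1.26 and 3.05), Cd44 (0.90 and 2.69), Selplg (1.33 and 3.12), Irf4 (1.11 and 2.90), Fyb (0.57 and 2.36) and Trat1 (0.77 and 2.56). The array median turned Itgb3 to 2.57, Itga4 to 1.996, Itgav to 2.37, Itga6 to 2.68, Itga7 to 2.42 and Itgam to 2.28. The 75th percentile turned these as well, to 0.78, 0.21, 0.58, 0.90, 0.63 and 0.49, without passing. Among the 17 other bright-probe settings Itgb1 and Cd44 were lower than WT in Irf4 KO IgG cells in all 17 and passed in 9 and 8. In blockade cells they were lower in all 17 and passed in 6 and 5. Of 165 alternatives of the chain ratios 6 moved by more than the spread between arrays and 0 turned a ratio whose groups did not overlap. These alternatives include leaving out arrays outside a comparison, which cannot change its ratio, so the counts overstate how far the ratios were tested.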
